A study of Mus musculus with 40 samples.

Results

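Mammary glands of estrogen-treated mice were compared with those of untreated controls 84 h after treatment began, with 5 libraries in each group, and the response is described across all genes. These 10 libraries, chosen by their labels from the 40 of the series, gave 17180 genes with enough counts to test out of 47729 listed. All 10 mice were Balb/cJ, had been ovariectomised at 21 d of age and had recovered for 7 d, so the controls as well as the treated mice lacked ovaries. Both groups ate a defined control diet based on AIN 93G, and the treated group also received 200 nM estrogen in the drinking water. One number 4 inguinal gland per mouse was used, from the teat to the place where the lymph node had been cut out, and RNA came from that whole piece of fat, stroma and ducts. Estrogen and control groups of 5 mice each at 60 h serve for the comparison of times. The labels do not say whether mice shared a cage or litter, so the p-values measure the spread between libraries. That spread was estimated over 20 libraries. Besides these 10 they were 5 controls at 132 h and 5 labelled CLA, another treatment of the series, at 132 h.

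Estrogen acts on the mammary gland through the estrogen receptor, a hormone-bound transcription factor found in part of the luminal cells of the ducts and in some stromal cells. Receptor-bearing luminal cells release amphiregulin, which acts on the epidermal growth factor receptor of neighbouring cells and so relays the hormone signal. Ducts of an ovariectomised prepubertal mouse stay small within the fat pad, and estrogen makes them grow from their tips.

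Total counts ran from 18.9 to 32.8 in units of 1e6 counts per library. The averages were 28.7 ± 3.92 (SD, n = 5) in controls and 27.7 ± 5.90 with estrogen. The tissue label was met by both fat and epithelium. Adipoq, the fat cell hormone adiponectin, stood at 1148 to 1569 counts per 1e6 counts of the library (CPM) over the 10 libraries, and the epithelial keratin gene Krt18 at 1.57 to 29.3 CPM in controls. A list of 48 tested skin and hair genes averaged 2.70 to 3.52 log2 CPM in estrogen libraries 2, 3 and 5, against -2.44 and -1.55 in the other two and -3.33 to 0.11 in controls. Mean log2 CPM of 22 skeletal muscle genes was highest in control library 5, at 6.21, and next in estrogen library 2, at 2.80. Animal numbers were 17 to 112 in the controls and 138 to 153 in the estrogen group, so the order of the numbers and the treatment cannot be told apart.

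In all, 931 genes passed an adjusted p of 0.05 (edgeR's quasi-likelihood test, Benjamini-Hochberg), which is 5.42% of those tested. Of these, 592 were higher with estrogen (3.45%) and 339 were lower (1.97%). The sets differed in size of change and in level. Higher genes had a median log2 fold change of 0.98, and 290 of them rose by 1 or more, 91 by 2 or more and 35 by 3 or more. Lower genes had a median of -0.39, only 22 of them fell to -1 or below, and the largest fall was -1.69. The median over all tested genes was -0.01. Mean level was 2.95 log2 CPM at the median higher gene and 5.47 at the median lower gene, against 4.04 over all tested genes. When tested genes were put by mean level into 4 classes of equal size, 293 of the higher genes lay in the class from 1.45 to 4.04 log2 CPM, whereas 155 of the lower genes lay in the top class, above 5.64. Groups did not overlap in 475 of the higher genes and 227 of the lower genes. Over all tested genes, estrogen libraries stood above every control in 4.9% and below every control in 3.09%. An unadjusted p under 0.05 was found for 3684 of the 17180 tested genes, in either direction. DESeq2, another test of counts, called 984 genes higher and 633 lower. The edgeR count of calls fell to 443, 618 and 591 without control library 1, 2 or 5. Without estrogen library 3 or 4 it was 515 and 548. A fit without the 6 libraries of high skin and hair signal called 303 of 17514 tested genes (281 higher, 22 lower). Those 6 were the 3 estrogen libraries named above and, for the rest, controls at 132 h. The split also moved with scaling, to 712 higher and 231 lower under upper-quartile factors.

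**Figure D1:**
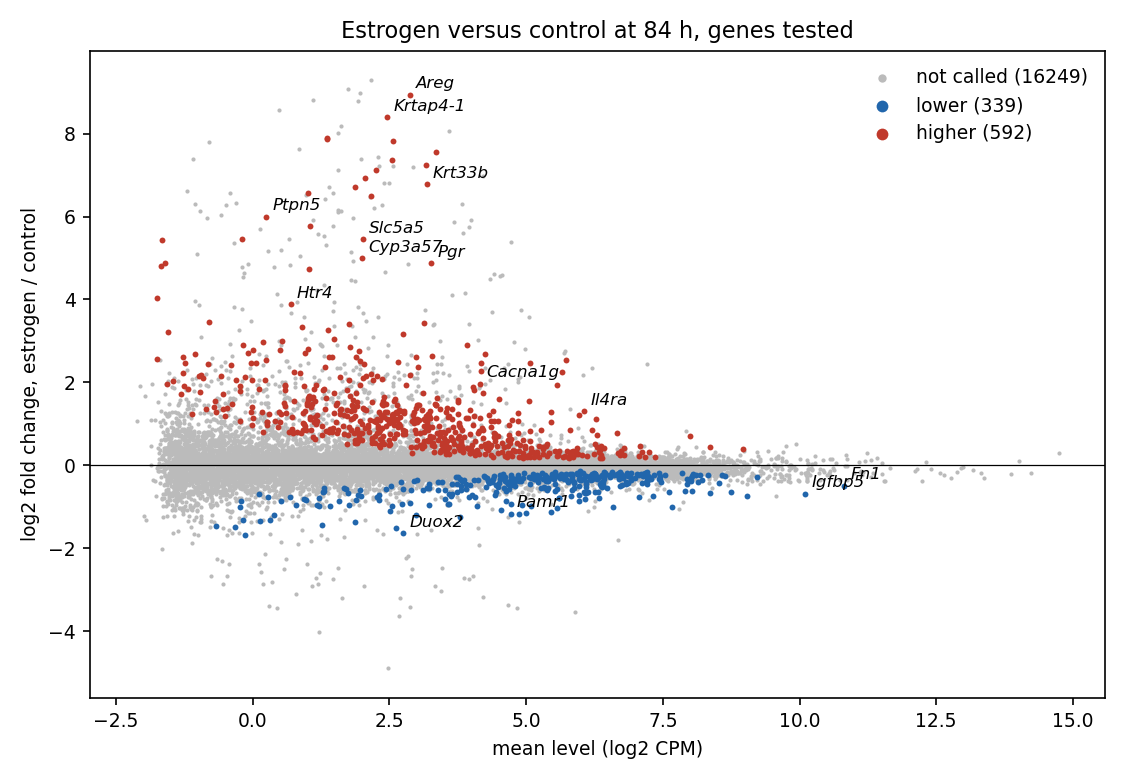
Mean level of each tested gene (log2 CPM, x axis) against its log2 fold change, estrogen over control at 84 h (y axis). Red points are the 592 genes called higher, blue points the 339 called lower and grey points the rest. Rises reach far above 2 among genes of low level, whereas called falls reach -1.69 and lie further to the right.

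Of 27 tested estrogen receptor target genes, 8 rose (29.6%, against 3.45% of all tested genes) and 1 fell (3.7%, against 1.97%). Their median was 0.32. Areg encodes amphiregulin. In controls it had 0.0972, 0, 0, 0.128 and 0 CPM, which is 7 reads in all, and with estrogen it had 13.7, 27.9, 42.0, 28.1 and 24.3 CPM, or 3489 reads. The groups did not overlap, and the fitted log2 fold change was 8.94 ± 1.02 (SE, adjusted p = 7.2e-05), a value that depends on the small count edgeR adds to libraries at 0. Pgr, the progesterone receptor gene, had 0.227 to 2.21 CPM in controls and 35.3, 31.9, 45.2, 35.7 and 20.5 CPM with estrogen. The lowest treated library was still well above the highest control, with a log2 fold change of 4.88 ± 0.59 (adjusted p = 9.4e-05). Greb1, a coactivator of the receptor, went from 0.640 to 1.0 CPM in controls to 3.61, 6.53, 2.27, 1.65 and 1.95 CPM. It rose by 1.92 ± 0.33, and its treated libraries were uneven, library 2 standing highest.

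Next to Pgr, a predicted protein-coding gene rose as well. Gm16485 lies 3179 bases beyond the end of Pgr on the same strand of chromosome 9 (GRCm38, chr9:8971791-8975773, after chr9:8899833-8968611 for Pgr). It had 0.162, 0.0476, 0.244, 0.544 and 0.247 CPM in controls and 8.06, 6.24, 8.71, 7.47 and 4.23 CPM with estrogen. No control came near the treated libraries, and the log2 fold change was 4.73 ± 0.46 (adjusted p = 1.03e-05). Whether its reads belong to a transcript of its own or to a longer Pgr transcript was not tested.

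Esr1, the gene of the receptor itself, had 82.5 to 138 CPM in controls and 71.4 to 99.8 CPM with estrogen. The ranges overlapped, and its log2 fold change of -0.22 ± 0.13 did not pass (adjusted p = 0.326). Among 33 tested genes for steroid and nuclear receptors, Pgr was the 1 that rose (3.03%, against 3.45% of all tested genes). In that list 3 fell (9.09%, against 1.97%). Among these were Nr3c1, the glucocorticoid receptor (-0.33 ± 0.08), and Rarb, a retinoic acid receptor (-0.59 ± 0.13). The groups did not overlap for Rarb, with 16.2 to 19.0 CPM in controls and 9.81 to 14.2 CPM with estrogen. Prlr, the prolactin receptor gene, had a log2 fold change of 1.11 ± 0.33 and narrowly missed the threshold (adjusted p = 0.0554).

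Slc5a5 and Cyp3a57 had larger fold changes than Pgr, while among 296 tested Slc symbols 6 were higher (2.03%, against 3.45% of all tested genes) and 4 lower. Slc5a5 is the sodium iodide symporter, which the lactating gland uses to load milk with iodide. Its control libraries held 0.227, 0.0953, 0.407, 0.735 and 0.0705 CPM, and its estrogen libraries 5.90, 15.8, 19.0, 15.8 and 13.7 CPM. Estrogen library 1 was the low one of its group, yet every treated library exceeded every control, and the log2 fold change was 5.45 ± 0.63 (adjusted p = 6.61e-05). Cyp3a57, a member of a family of drug- and steroid-oxidising cytochromes, had 0.0648 to 1.02 CPM in controls and 10.7 to 16.7 CPM with estrogen. It rose by 5.00 ± 0.61 and was the 1 gene called among 46 tested Cyp symbols (2.17%). Aqp5, a water channel of secretory epithelium, rose by 3.16 ± 0.58, and Slc12a2, the basolateral sodium-potassium-chloride cotransporter, by 1.12 ± 0.18. Of 24 tested genes for epithelial ion and water channels, 3 were higher (12.5%) and 0 lower by edgeR, Kcnk1 being the third. At an unadjusted p under 0.05, 2 members were lower, and DESeq2 called 1 lower.

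**Figure D2:**
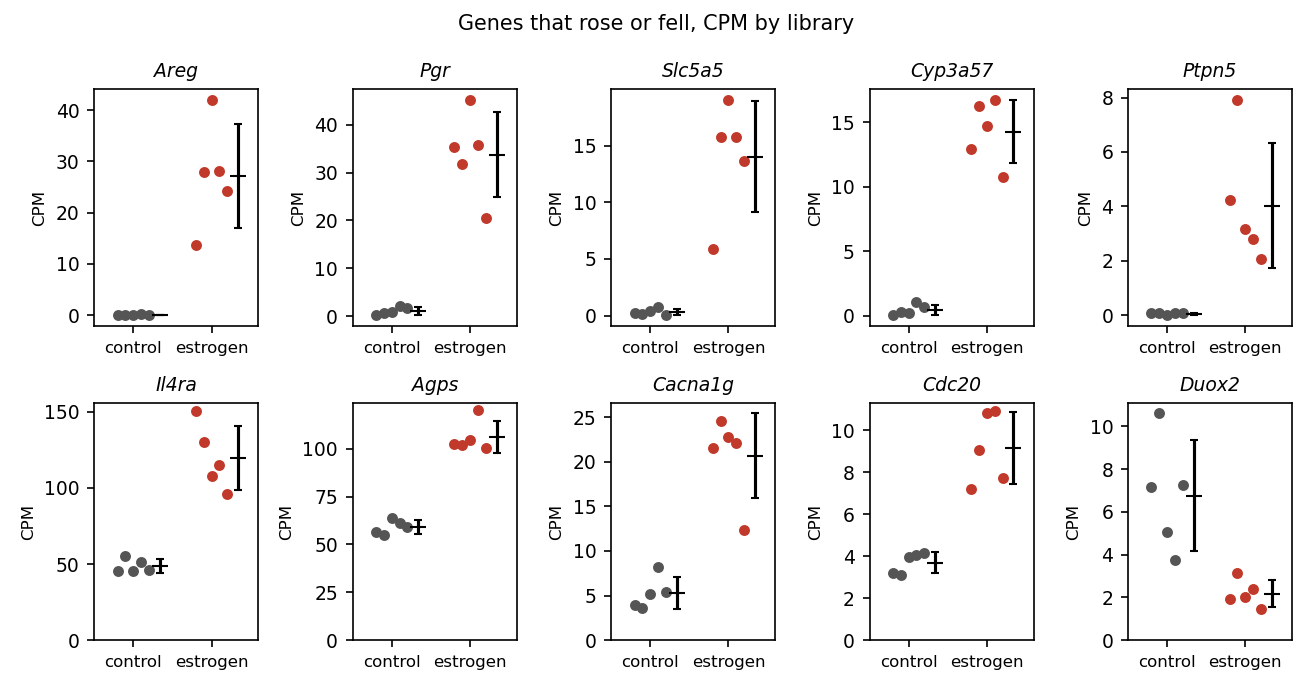
CPM (y axis, from 0) in each of the 5 control libraries (grey) and 5 estrogen libraries (red) for 10 genes, with the mean and SD as a bar beside each group. Areg, Pgr, Slc5a5, Cyp3a57 and Ptpn5 are near 0 in controls, Il4ra and Agps change from one narrow range to another, and Duox2 falls.

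A further set of strongly raised genes carries names from nerve and muscle excitability. They were grouped after their values were seen, so the grouping is a description. Ptpn5, a tyrosine phosphatase best known from striatal neurons, had 0.0648, 0.0953, 0, 0.064 and 0.0705 CPM in controls, or 8 reads in all. With estrogen it had 4.23, 7.92, 3.17, 2.79 and 2.05 CPM, or 567 reads. The fitted log2 fold change was 6.0 ± 0.56 (adjusted p = 6.91e-06), again dependent on the added count. Htr4, a serotonin receptor, stood at 0.143 to 0.544 CPM in controls and 3.85 to 5.45 CPM with estrogen (3.90 ± 0.51). Both groups were tight for Htr4 and far apart. Cacna1g, a T-type calcium channel subunit, went from 3.62 to 8.15 CPM to 21.6, 24.6, 22.7, 22.1 and 12.4 CPM (1.97 ± 0.21, adjusted p = 3.49e-05). Treated library 5 was the low one, though above every control.

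Hpca, which encodes the calcium sensor hippocalcin, rose by 2.75 ± 0.38, and Nxph3, a neurexin ligand, by 2.70 ± 0.36. Rasgrf1, a calcium-dependent activator of Ras, rose by 2.60 ± 0.39, and the diacylglycerol kinase gene Dgki by 2.25 ± 0.22. Nrxn3, a neurexin, rose by 2.20 ± 0.34, and Cacng4, an auxiliary subunit of calcium channels and glutamate receptors, by 2.22 ± 0.40. In the list of 36 tested synaptic and excitability genes put together after the values were seen, 8 rose and 0 fell. The share that rose was 22.2%, against 3.45% of all tested genes. The median of the list was 0.06, and the other 28 were not called. By unadjusted p under 0.05, 1 member was lower, and DESeq2 called 1 lower. In the fit without the 6 libraries of high skin and hair signal, 8 of 36 were still higher, against 281 of 17514 tested genes.

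Il4ra and Agps had the smallest p-values of all tested genes. Il4ra, a receptor subunit for interleukins 4 and 13, had 45.5, 55.2, 45.3, 51.1 and 46.3 CPM in controls and 150, 130, 108, 115 and 95.8 CPM with estrogen. The log2 fold change was 1.30 ± 0.11 (adjusted p = 1.69e-06). Agps, which makes the first ether bond of plasmalogen lipids in peroxisomes, had 56.5, 55.0, 63.7, 61.3 and 59.1 CPM in controls and 103, 102, 105, 120 and 101 CPM with estrogen. It rose by 0.84 ± 0.07 with no overlap. Tmed3, a cargo protein of early secretory vesicles, moved from 58.3 to 65.7 CPM to 83.5 to 92.7 CPM (0.51 ± 0.05). Amd1, which makes the propylamine donor for polyamines, rose by 1.02 ± 0.15, and Plk2 by 0.86 ± 0.12. Ido1, the tryptophan-degrading enzyme, rose by 2.78 ± 0.36 from 0.244 to 0.608 CPM in controls to 1.06 to 4.07 CPM.

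Luminal hormone-sensing genes had the second highest share of called genes among the lists, after mitosis. Of 19 tested, 9 rose (47.4%, against 3.45% of all tested genes) and 0 fell by edgeR. The median was 2.26, against -0.01 over all tested genes. None was lower at an unadjusted p under 0.05 or by DESeq2. Besides Pgr and Areg, the called members were Aqp5, Cited1, Tmprss2, Krt8, Krt18, Krt19 and Stc2. Cited1, a coregulator of the estrogen receptor, had 1.59, 1.10, 6.27, 12.1 and 6.41 CPM in controls and 30.6, 19.6, 36.9, 42.0 and 23.4 CPM with estrogen. Control libraries 1 and 2 were the lowest, here and in the luminal keratins. Krt8 had 0.777 and 0.953 CPM in control libraries 1 and 2, 6.45 to 15.5 CPM in the other controls and 30.2 to 51.8 CPM with estrogen. It rose by 2.69 ± 0.74 (adjusted p = 0.0423). The mean over the 19 genes was 0.91 to 3.59 log2 CPM in controls and 4.77 to 5.38 with estrogen, without overlap. In a bulk sample, fewer cells of a type and less RNA of these genes per cell cannot be told apart. In the fit without the 6 high-skin libraries, which leaves 2 treated mice, 3 of 20 tested members were called higher. Over all genes of that fit it was 281 of 17514.

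Other epithelial lists had smaller shares of called genes. Of 20 tested secretory luminal genes, Folr1 (1.92 ± 0.39) and Cd24a (1.30 ± 0.34) rose, which is 10% against 3.45% of all tested genes. In that list 1 gene fell (5%, against 1.97%). Aldh1a3, an enzyme that makes retinoic acid, fell by 0.72, from 51.6 to 87.3 CPM in controls to 31.2 to 48.3 CPM. Among 23 tested basal and myoepithelial genes, 4 rose (17.4%) and 0 fell by edgeR. At an unadjusted p under 0.05, 1 was lower, and DESeq2 called 0 lower. Those that rose were Oxtr, Sox10, Egfr and Snai2. Oxtr, the oxytocin receptor that triggers milk ejection, had 11.1, 16.3, 38.6, 22.7 and 25.2 CPM in controls and 75.9, 56.0, 68.3, 88.8 and 45.2 CPM with estrogen. Its log2 fold change was 1.55 ± 0.35 (adjusted p = 0.0158), with treated library 5 nearest to the controls. The basal keratins Krt14 (2.97 ± 1.02) and Krt5 (2.77 ± 0.96) did not pass, and skin also makes both. Of 41 tested genes for epithelial junctions, 39 had a positive fold change and the median was 1.72, yet 3 were called higher (7.32%). These were the claudins Cldn3 and Cldn7 and the protease inhibitor Spint2. Tjp1, a tight junction scaffold shared with endothelium, fell by 0.31, and 0 of the 41 were called without the high-skin libraries. In that fit 281 of 17514 tested genes were higher and 22 lower.

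Some genes of growth factor signalling were called, while the median of their list of 33 was 0.08. Egfr, the receptor of amphiregulin, had 63.2, 51.6, 62.8, 50.6 and 45.0 CPM in controls and 84.4, 90.4, 96.1, 102 and 81.7 CPM with estrogen. It rose by 0.73 ± 0.18 (adjusted p = 0.0252) without overlap of the groups. By edgeR it did not pass with the skin and hair signal as a covariate (0.56, adjusted p = 0.0809). It did pass without the high-skin libraries (0.77, adjusted p = 0.0106). Erbb3, a related receptor, rose by 1.6 ± 0.38, and Etv4, a transcription factor downstream of such receptors, by 2.60 ± 0.49 from 0.333 to 1.53 CPM in controls. With Areg, that made 4 higher (12.1%, against 3.45% of all tested genes) and 0 lower of 33 tested genes for FGF and EGF signalling by edgeR. At an unadjusted p under 0.05, 2 were lower, and DESeq2 called 0 lower. Stc2 and Pappa, a secreted inhibitor and the protease it blocks, both rose. Stc2 rose by 2.26 ± 0.37 and Pappa by 1.18 ± 0.27. The binding proteins Igfbp5, a substrate of that protease family, and Igfbp3 fell by 0.68 and 0.81. Igfbp5 had 954 to 1470 CPM in controls and 1010, 576, 758, 880 and 524 CPM with estrogen, and treated library 1 lay inside the control range. Edar, the ectodysplasin receptor of skin appendages and ducts, rose by 2.44 ± 0.57 while its ligand gene Eda fell by 0.32. Of 37 tested Wnt genes 1 rose (Wnt5b, 0.58 ± 0.16), which is 2.7% against 3.45% of all tested genes. In that list 2 fell (5.41%, against 1.97%), both secreted inhibitors (Dkk2 and Sfrp2). Without the high-skin libraries 0 of 36 Wnt genes were called in either direction, against 281 higher and 22 lower of 17514 tested genes.

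Mitosis genes had the highest share of called genes among the lists. Of 63 tested genes for mitosis, 59 rose (93.7%, against 3.45% of all tested genes) and 0 fell by edgeR. At an unadjusted p under 0.05, 0 were lower, and DESeq2 called 0 lower. All 63 fold changes were positive and their median was 1.15. Estrogen libraries stood above every control in 56, against 4.9% of all tested genes. Cdc20, the activator of the anaphase-promoting complex, had 3.21, 3.10, 3.95, 4.06 and 4.16 CPM in controls and 7.18, 9.05, 10.8, 10.9 and 7.72 CPM with estrogen (1.30 ± 0.18, adjusted p = 0.000215). Ube2c, the ubiquitin carrier of that complex, rose by 1.17 ± 0.15, and Cdk1, the kinase that starts mitosis, by 1.15 ± 0.14. On the other strand, Ube2c overlaps the muscle gene Tnnc2 and Cdc20 overlaps Elovl1. Ccnb2, a cyclin of Cdk1, had the smallest p of the list, with 3.24 to 4.86 CPM in controls and 7.34 to 13.0 CPM with estrogen. Its log2 fold change was 1.37 ± 0.15 (adjusted p = 2.8e-05). Mki67, the standard proliferation marker, rose by 1.22 ± 0.22. The members not called were Cdc25b, Cenpa, Cenpk and Ska3. Without the high-skin libraries 50 of 63 were called higher, against 281 of 17514 tested genes. Under each of the 23 alternatives run, 24 were called.

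Replication and repair genes also rose, with smaller shares called. Of 49 tested DNA replication genes 21 rose (42.9%, median 0.33), and of 34 tested DNA repair genes 12 rose (35.3%, median 0.27). Over all tested genes the share was 3.45%. By edgeR 0 fell in either list, while 1 in each was lower at an unadjusted p under 0.05 and DESeq2 called 0 and 1 lower. Mcm6, a subunit of the replicative helicase, had 6.51, 8.57, 8.10, 11.3 and 9.16 CPM in controls and 23.0, 16.3, 18.7, 22.0 and 12.0 CPM with estrogen. The lowest treated library was just above the highest control, and the log2 fold change was 1.07 ± 0.21. Brca1, a recombination repair gene, rose by 1.05 ± 0.19 and the DNA glycosylase gene Neil3 by 1.38 ± 0.18. Rbl2, a pocket protein that holds cell cycle promoters silent in resting cells, fell by 0.38.

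Cell cycle promoters are known to carry short elements by which their genes are switched on late or early in the cycle. TTTGAA are the letters of the cell cycle homology element and CCAAT those bound by NF-Y, while TTTGGCGC and TTTCGCGC are forms of the E2F site. The stretches below are shown because mitosis genes had the highest share of called genes, with Mcm6 as a replication gene and Areg as an estrogen target beside them. Each is the 130 bases that end at the base before the RefSeq start site (GRCm38.p6), in the direction of the gene. In the first 3, capitals mark TTTGAA and CCAAT on either strand (TTCAAA and ATTGG are the same letters on the other strand). In Mcm6, capitals mark TTTGGCGC, TTTCGCGC and CCAAT on either strand, and the E2F forms on opposite strands overlap. In Areg they mark TGACGTCA, the cyclic AMP response element. The Cdc20 stretch is chr4:118437344-118437473 on the minus strand. The Ube2c stretch is chr2:164769799-164769928 on the plus strand. The Cdk1 stretch is chr10:69352913-69353042 on the minus strand. The Mcm6 stretch is chr1:128359706-128359835 on the minus strand. The Areg stretch is chr5:91139469-91139598 on the plus strand.
Cdc20: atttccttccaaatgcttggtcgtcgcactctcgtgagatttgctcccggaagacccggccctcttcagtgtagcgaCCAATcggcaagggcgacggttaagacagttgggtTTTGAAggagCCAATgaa
Ube2c: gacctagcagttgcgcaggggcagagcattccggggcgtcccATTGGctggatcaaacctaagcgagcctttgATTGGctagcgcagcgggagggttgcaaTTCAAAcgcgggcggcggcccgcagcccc
Cdk1: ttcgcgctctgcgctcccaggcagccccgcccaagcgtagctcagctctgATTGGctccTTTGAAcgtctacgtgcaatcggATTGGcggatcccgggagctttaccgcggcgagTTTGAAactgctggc
Mcm6: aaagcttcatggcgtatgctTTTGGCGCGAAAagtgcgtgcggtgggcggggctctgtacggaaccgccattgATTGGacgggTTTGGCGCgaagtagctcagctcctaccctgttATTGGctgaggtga
Areg: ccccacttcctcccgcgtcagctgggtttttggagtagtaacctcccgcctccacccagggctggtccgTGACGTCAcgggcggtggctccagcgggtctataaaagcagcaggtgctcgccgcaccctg

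Letters of this kind were counted in the window from 250 bases before to 50 after each start site, on both strands. The choice of these motifs, other than the estrogen response element, was made after values were seen. TTTGAA occurred in 39 of 55 promoters of mitosis genes (70.9%), against 17.9% of all 32851 RefSeq promoters and 12.7% of those of tested genes. In DNA replication promoters it occurred in 6 of 48 (12.5%). CCAAT occurred in 72.7% of mitosis and 58.3% of replication promoters, against 37.4% of all and 36.9% of those of tested genes. TTTGGCGC stood in 16.7% of replication promoters and TTTCGCGC in 18.8%, against 0.514% and 0.323% of all. In promoters of tested genes these shares were 0.876% and 0.543%. Called genes outside both lists had TTTGAA in 14.7% of promoters when higher. TGACGTCA was in 1.79% of all promoters, 2.72% of those of tested genes, 3.19% of those of higher genes and 3.95% of those of lower genes. The full palindromic estrogen response element was in 0 of 564 promoters of higher genes and 0 of 304 of lower genes, and in 23 of all promoters. AGGTCA, a single arm of it, was in 12.1% of promoters of higher genes, 10.9% of lower genes and 12.9% of tested genes. These are letter matches near the start site only.

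Some ribosomal protein genes rose. Among 52 tested Rpl symbols 9 were higher (17.3%, median 0.19), and among 45 tested Rps symbols 6 were higher (13.3%, median 0.17). Over all tested genes the share was 3.45%. By log2 fold change the higher Rpl and Rps genes ran from 0.18 (Rpl18) to 0.81 (Rps23). Rpl10a, a protein of the large subunit, had 17.5 to 23.5 CPM in controls and 29.0 to 30.7 CPM with estrogen (0.49 ± 0.10). Many processed copies of ribosomal protein genes exist, so reads may be split among them and these values are uncertain. Of 50 tested ribosome biogenesis genes 3 rose (6%), the nucleolar genes Nop56, Nop58 and Gnl3, all by less than 0.5.

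**Figure D3:**
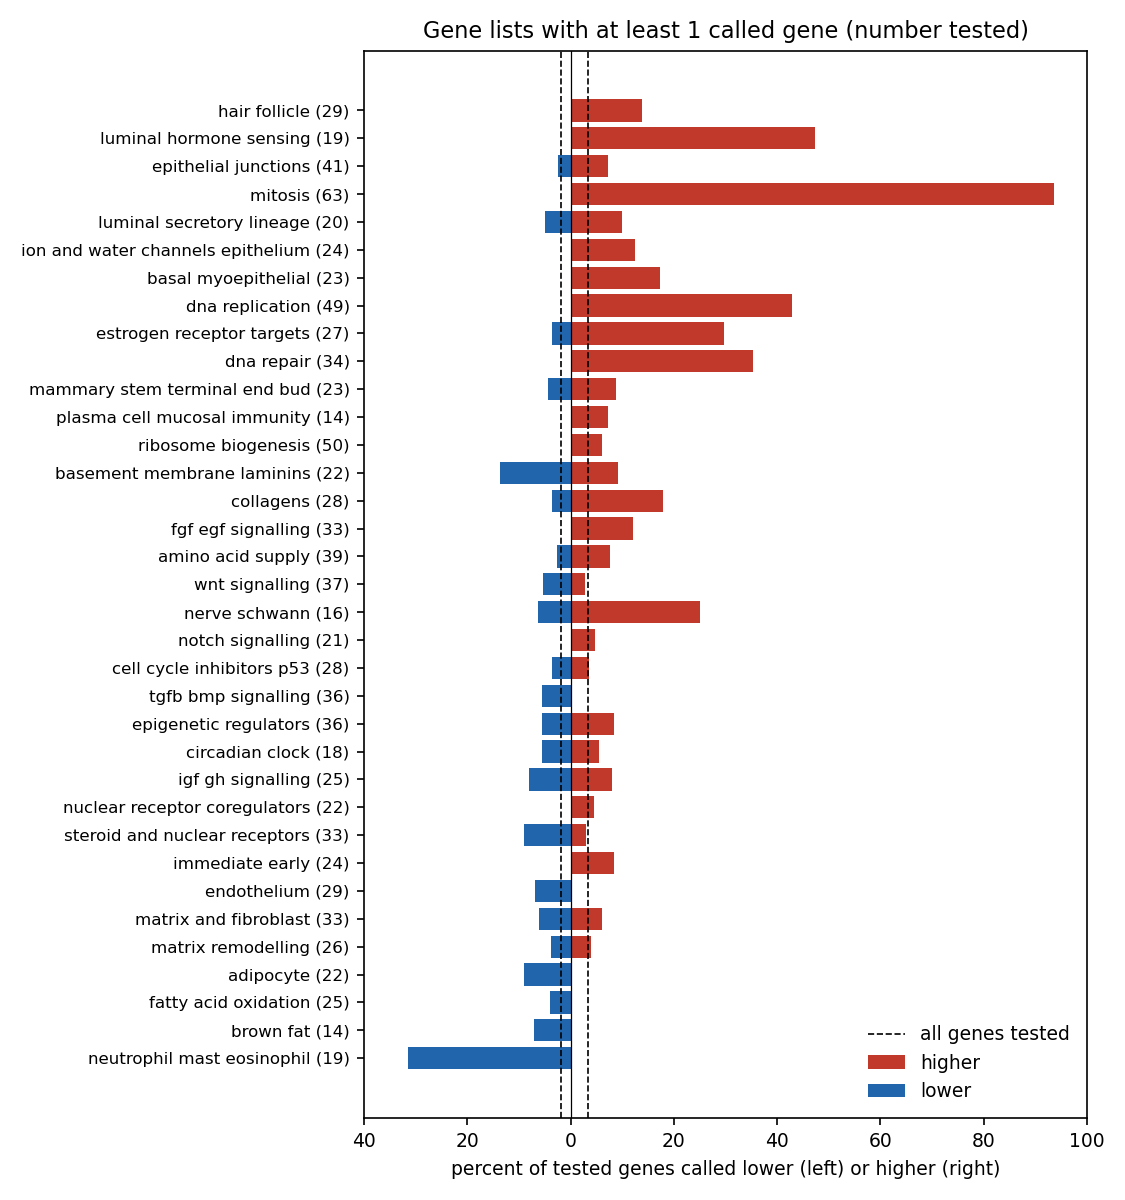
Percent of tested genes called higher (red, right) or lower (blue, left) in each gene list that had at least 1 call, with the number tested in brackets and the share over all tested genes as dashed lines (3.45% higher, 1.97% lower). Mitosis reaches 93.7% higher, hormone-sensing luminal genes 47.4%, and the list of neutrophil, mast cell and eosinophil genes 31.6% lower.

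Among lower genes named by the rule, Duox2, a hydrogen peroxide-producing oxidase, fell the most. It had 7.16, 10.6, 5.05, 3.74 and 7.26 CPM in controls and 1.91, 3.13, 2.0, 2.41 and 1.44 CPM with estrogen, a log2 fold change of -1.63 ± 0.28 (adjusted p = 0.00152). Pamr1, a secreted protein linked to muscle regeneration, had 44.3, 34.2, 27.1, 23.7 and 29.9 CPM in controls and 12.5, 16.3, 13.9, 16.4 and 12.1 CPM with estrogen (-1.16 ± 0.16). Both groups were clear of each other in these genes. Itga11, a collagen receptor subunit of fibroblasts, fell by 1.15, Hmcn2, a hemicentin of the matrix, by 1.18, and Rgs2, a brake on G protein signalling, by 1.04. Nov, a matricellular protein, and Prdm8, a transcriptional repressor, fell by 1.25 and 1.37.

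Tnxb and Fn1 were the lower members of the matrix and fibroblast list, and Eln and Plod2 the higher ones, of 33 tested. That is 6.06% in each direction, against 1.97% lower and 3.45% higher over all tested genes. Tnxb, tenascin X, had 667, 719, 586, 557 and 583 CPM in controls and 406, 366, 388, 411 and 296 CPM with estrogen. Its log2 fold change was -0.74 ± 0.12 (adjusted p = 0.000785) and no library crossed. Fn1, fibronectin, fell by 0.49. Outside that list, Ecm1 fell by 0.74, Efemp1 by 0.75 and the collagen gene Col14a1 by 0.64. Elastin (Eln, 0.40 ± 0.11) and the collagen-modifying enzyme Plod2 (1.08 ± 0.16) rose. Of 28 tested collagen genes 5 were higher (17.9%) and 1 lower (3.57%). Col7a1, the anchoring fibril collagen under epithelia, had 5.05 to 13.0 CPM in controls and 26.2 to 54.4 CPM with estrogen (2.28 ± 0.35). Col9a2, Col9a3, Col11a1 and Col16a1 also rose. Among 22 tested laminin and basement membrane genes 2 rose (9.09%) and 3 fell (13.6%). Itga3, an integrin of epithelial adhesion, rose by 0.60, while Lama2, Lama4 and Lamb1 of stromal, vascular and other basement membranes fell by 0.46, 0.26 and 0.23. The list of the matrix and fibroblast genes averaged 7.01 to 7.56 log2 CPM with estrogen and 7.39 to 7.50 in controls.

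Mast cell genes fell together. A list of neutrophil, mast cell and eosinophil genes had 6 of 19 tested members lower (31.6%, against 1.97% of all tested genes) and 0 higher by edgeR (median -0.86). At an unadjusted p under 0.05, 1 was higher, and DESeq2 called 0 higher. All 6 are mast cell genes, namely Cpa3, Tpsb2, Tpsab1, Mcpt4, Cma1 and Ms4a2. Tpsb2, a tryptase stored in mast cell granules, had 50.7, 45.9, 32.6, 52.5 and 30.7 CPM in controls and 27.4, 21.9, 25.2, 17.4 and 15.3 CPM with estrogen. It fell by 0.99 ± 0.20 (adjusted p = 0.00771), with the top treated library just under the lowest control. Cpa3, the granule carboxypeptidase, had 47.3, 41.5, 27.9, 44.3 and 27.9 CPM in controls and 26.9, 18.1, 20.9, 17.8 and 14.5 CPM with estrogen (-0.94 ± 0.20). The chymases Mcpt4 and Cma1 fell by 0.98 and 0.86, and Ms4a2, a chain of the IgE receptor, by 1.33. Of a wider list of 20 tested mast cell genes assembled after these were seen, 9 were lower (45%) and 0 higher by edgeR. In the wider list 1 was higher at an unadjusted p under 0.05 and DESeq2 called 0 higher. Kit, which other cells also express, went the other way without passing (0.34 ± 0.16), and Hdc, the histamine-making enzyme, missed the threshold (-0.49 ± 0.16, adjusted p = 0.0853). Without the high-skin libraries, 0 of the 20 were called with 2 treated mice left, although the median was still -0.69. Of all 17514 genes tested in that fit, 22 were lower. Skin contains mast cells too, and the skin and hair signal was high in 3 estrogen libraries and 0 controls at 84 h. With that signal as a covariate, edgeR still called Cpa3 (-1.02), Tpsb2 (-1.12), Tpsab1 (-1.64), Mcpt4 (-1.10), Cma1 (-0.95) and Ms4a2 (-1.32) lower. Kit (0.38) and Hdc (-0.54) were not called in that fit. Beyond these fits, the part of skin tissue in these values was not tested.

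**Figure D4:**
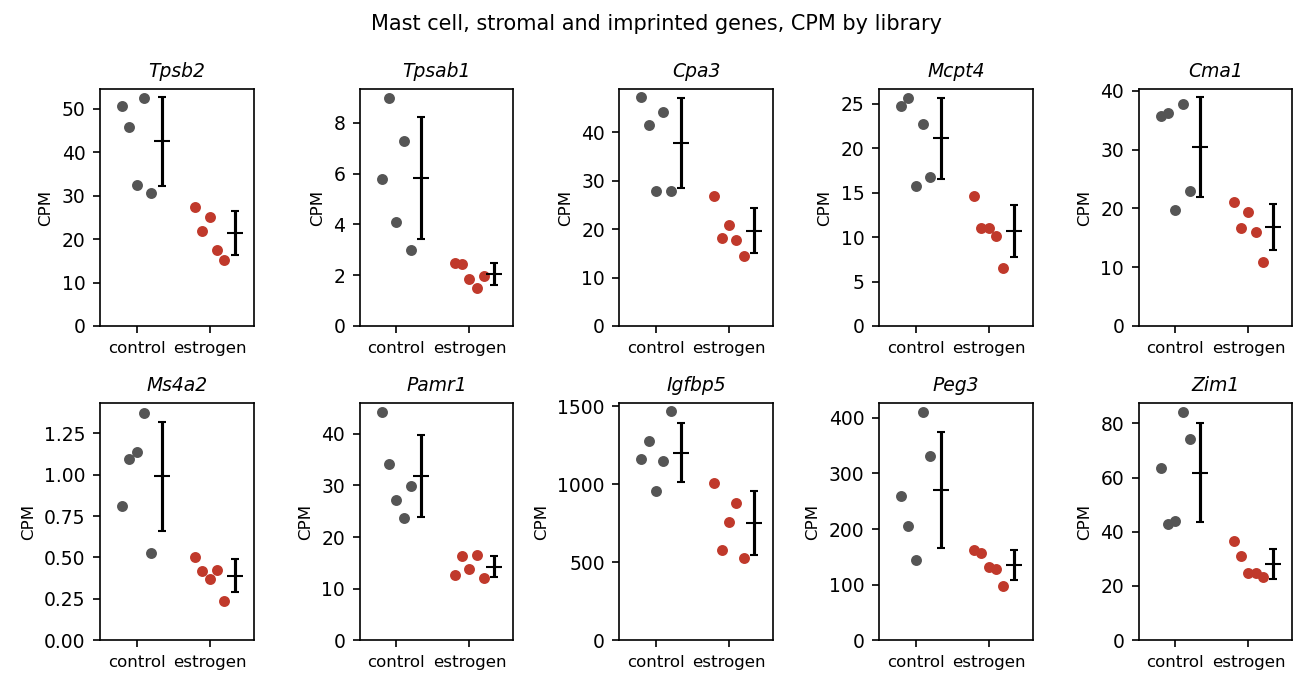
CPM (y axis, from 0) in 5 control libraries (grey) and 5 estrogen libraries (red) for 6 mast cell genes, 2 stromal genes and 2 imprinted genes, with mean and SD beside each group. Treated libraries lie below every control for the plotted genes except Cma1, Igfbp5 and Peg3, in which 1 or more libraries cross.

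Some imprinted genes of the fetal growth network fell as well, a grouping made after their values were seen. Zim1 had 63.4, 42.9, 44.0, 84.4 and 74.1 CPM in controls and 36.6, 31.1, 24.9, 24.8 and 23.2 CPM with estrogen (-1.13 ± 0.21, adjusted p = 0.00427). Peg3, its neighbour and a zinc finger gene, had 260, 205, 144, 411 and 331 CPM in controls and 163, 157, 132, 128 and 96.7 CPM with estrogen (-1.0 ± 0.23). Control library 3 fell within the treated range of Peg3. Nnat and Plagl1 fell by 0.92 and 0.67 and the noncoding Airn, which overlaps Igf2r on the other strand, by 0.28, while Peg10 rose by 0.67. Of 28 tested imprinted genes, 5 were lower (17.9%, against 1.97% of all tested genes) and 1 higher (3.57%, against 3.45%). Their median was -0.16. Without the high-skin libraries edgeR called 0 of 29 in either direction, and the median was -0.05. Of all 17514 genes tested in that fit, 22 were lower and 281 higher.

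Of 25 tested fatty acid oxidation genes Ehhadh was the 1 called lower (4%, against 1.97% of all tested genes, median -0.30). Of that list 1 gene had a positive fold change, 15 were lower at an unadjusted p under 0.05 and DESeq2 called 4 lower. Over all 17180 tested genes, 3684 were under that p in either direction, and DESeq2 called 633 lower. Of 14 tested brown fat genes Ebf2 was the 1 called lower (7.14%), the median was -0.32 and 0 had a positive fold change. Ebf2, a factor of brown and beige fat precursors, had 28.7 to 34.6 CPM in controls and 21.4 to 22.8 CPM with estrogen (-0.50 ± 0.07, adjusted p = 0.000367). Epas1, an oxygen-sensing transcription factor abundant in vessels and fat, fell by 0.27, Tek, an endothelial receptor, by 0.49 and its ligand gene Angpt1 by 0.42. Ehhadh, a peroxisomal fat-oxidising enzyme, fell by 1.01 but control library 3 (54.3 CPM) was under every treated library (61.7 to 70.5 CPM). Of 22 tested fat cell genes, Acvr1c and Nnat were lower (9.09%). Nuclear genes of oxidative phosphorylation had 0 calls of 32 by edgeR, with a median of -0.17, 0 positive fold changes, 2 genes lower at an unadjusted p under 0.05 and 0 called by DESeq2.

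Several lists had 0 calls by edgeR in either direction. Over all 17180 tested genes, 3684 had an unadjusted p under 0.05, and DESeq2 called 984 higher and 633 lower. For macrophage genes (22 tested) 1 gene was under an unadjusted p of 0.05 and DESeq2 called 0, and for interferon-response genes (29) both counts were 0. Secretory pathway genes (50) had 6 under that p and fat synthesis genes (25) had 2, with 0 called by DESeq2 in each. Sterol synthesis genes (27) had 5 under it, and DESeq2 called 2 higher and 1 lower. Skeletal muscle genes (22) had 8 lower at that p and 3 by DESeq2, with a median of -2.75, and control library 5 had the high muscle signal given above.

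Hair genes need their libraries beside them. In the hair follicle list 4 of 29 tested genes were called higher (13.8%), and 11 of 45 tested Krtap symbols (24.4%), against 3.45% of all tested genes. Krtap3-1, a keratin-associated protein of the hair shaft, had 0 to 0.0705 CPM in controls, 5.07, 21.7 and 12.0 CPM in estrogen libraries 2, 3 and 5, and 0.502 and 0 CPM in libraries 1 and 4. The treated group overlapped the controls. Without the libraries of high skin and hair signal, 0 of 23 tested hair follicle genes were called. Without these libraries, edgeR also called 13 of 49 DNA replication genes, 7 of 34 DNA repair genes, 2 of 23 basal and myoepithelial genes and 3 of 28 collagen genes higher. Of 33 matrix and fibroblast genes, 1 was higher. Over all genes of that fit, 281 of 17514 were higher and 22 lower. The part of skin tissue in these lists was not tested.

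The response at 84 h was then set beside that at 60 h, in separate mice with their own controls. Of the 592 genes higher at 84 h, 571 had a positive fold change at 60 h and 330 were called higher there, against 50.1% and 4.03% of all 17852 genes tested over the 40 libraries. Of the 339 lower genes, 315 were negative at 60 h and 80 were called lower there, against 49.9% and 2.96% of all. Areg had a log2 fold change of 8.87 ± 1.26 at 60 h and Pgr one of 4.50 ± 0.59, close to the later values. Slc5a5 had 3.91 ± 0.63 at 60 h, and Hpca 0.92 ± 0.42, but the differences of 1.54 and 1.83 did not pass (adjusted p = 0.81 and 0.633). Tested directly, 1 of 17852 genes differed between the times (0.0056%), and 1160 had an unadjusted p under 0.05. That gene, Gm4876, is an antisense transcript across the Tes locus (GRCm38, chr6:17065010-17171833). It was raised at 60 h (0.99 ± 0.14) and not called at 84 h, when controls had 7.64, 11.9, 11.7, 9.88 and 11.4 CPM and treated libraries 10.3, 8.11, 9.44, 9.76 and 8.80 CPM. The difference was -1.18 (adjusted p = 0.00993), and as strand use in counting is not given, reads of Tes cannot be told apart from it.

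**Figure D5:**
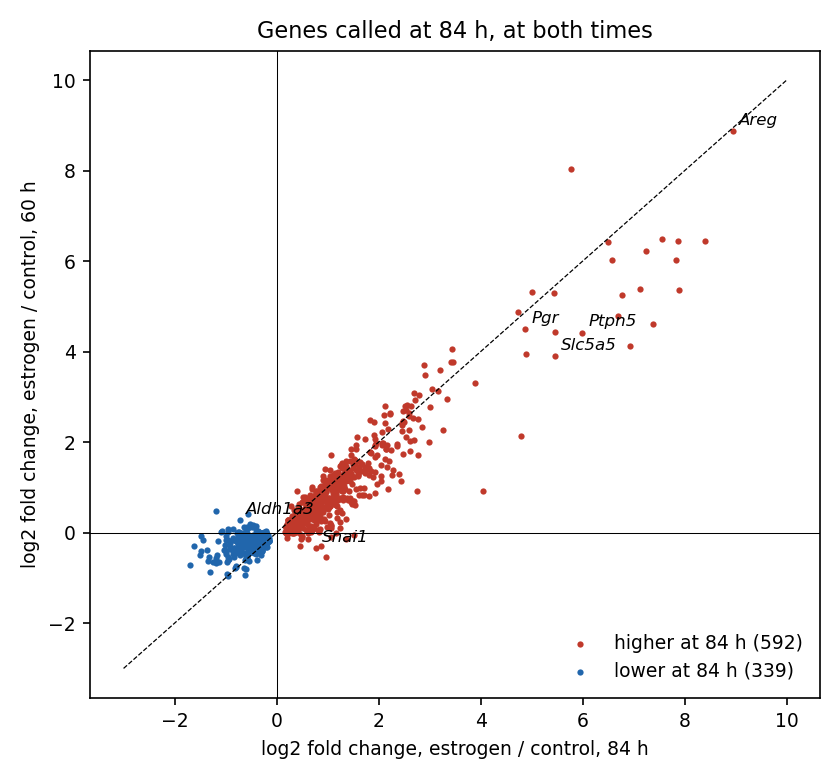
Log2 fold change at 84 h (x axis) against 60 h (y axis) for the 931 genes called at 84 h, red for the 592 higher and blue for the 339 lower, with the line of equal values dashed. Points of higher genes run along the line with 571 above 0 at 60 h, and lower genes cluster nearer to 0 at 60 h.

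Other genes with small p for this difference did not pass (adjusted p = 0.319 for each). Snai1, a transcription factor of cell migration, was higher at 84 h (0.77 ± 0.16) with -0.34 ± 0.18 at 60 h. Bhlhe41, a clock repressor, was higher at 84 h (0.97 ± 0.25) with -0.54 ± 0.24 at 60 h. Aldh1a3 was lower at 84 h with 0.28 ± 0.16 at 60 h.

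Noncoding and predicted genes took a small part. Of 545 tested lincRNAs 7 were higher and 5 lower, and of 433 antisense transcripts 6 were higher and 6 lower. The shares called in either direction were 2.2% and 2.77%, against 5.42% of all tested genes. Gm8739, an antisense transcript on chromosome 13, had 0.972, 1.24, 1.26, 0.927 and 1.20 CPM in controls and 11.5, 7.63, 6.54, 4.69 and 4.13 CPM with estrogen. The controls were nearly constant and the log2 fold change was 2.62 ± 0.25 (adjusted p = 7.92e-06). It overlaps Fbxw17 and Nutm2 on the other strand, and Fbxw17 was called higher too. As strand use in counting is not given, reads of Fbxw17 cannot be told apart from it. Gm8739 was called in 22 of the 23 alternatives, but not by limma on log2(RPKM + 0.1), where the adjusted p was 0.116.

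Across the 23 alternatives run, 65 higher and 6 lower genes were called in each one. The higher ones include Areg, Pgr, Slc5a5, Cyp3a57, Gm16485, Ptpn5, Htr4, Il4ra, Agps, Cdc20 and Ube2c. The 6 lower ones were Ebf2, Ecm1, Nov, Pamr1, Prdm8 and Rgs2. Without the high-skin libraries 246 of the 592 higher genes and 17 of the 339 lower genes were still called. When each library in turn was left out, 293 higher and 92 lower genes were called every time. Of the genes named above, Acvr1c, Airn, Cldn7, Ehhadh, Eln, Epas1, Fn1, Gnl3, Igfbp3, Kcnk1, Krt8, Krt18, Krtap3-1, Lama4, Lamb1, Nnat, Nop56, Nop58, Rpl18, Rps23 and Sfrp2 were called in at most 3 of these 10 fits. Angpt1, Bhlhe41, Cd24a, Cldn3, Cma1, Col11a1, Eda, Egfr, Erbb3, Peg10, Snai2, Spint2 and Wnt5b were called in 4 to 6 of them, and Edar, Lama2, Mcpt4, Nr3c1, Plagl1, Tjp1 and Tmprss2 in 7 to 9.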

How the data were processed

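RNA was measured in 40 glands, of which the 10 at 84 h are described. Per the labels' protocols, libraries were stranded and poly(A)-selected, amplified over 10 PCR cycles and run over 4 lanes. Per the submitters' processing notes the build was GRCm38. No aligner or counting program is given in the sources used here. The authors deposited gene counts and, separately, RPKM values (reads per kilobase of gene and 1e6 reads), in 1 table for 84 h and 132 h. Gene positions and types are from GENCODE M21 (GRCm38), and promoters from RefSeq (GRCm38.p6), found for 12277 of the 17180 tested symbols.

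Counts were filtered with filterByExpr (minimum count 10, minimum total 15), scaled by TMM and tested with edgeR 4.0.16 (R 4.3.3, robust quasi-likelihood F test). The 20 libraries of the later table shared 1 estimate of spread, and the difference between times used 1 fit of all 40. Those 40 include 5 libraries labelled CLA at 108 h and 5 at 132 h. The words rise, fall and called stand for a Benjamini-Hochberg adjusted p under 0.05. The SE after a log2 fold change is its size over the square root of F, an approximation worked back from the test. It is unreliable for genes near 0 counts. For Areg it was 1.02 at 84 h and 1.26 at 60 h, but 7.0 for their difference. RPKM values served as an alternative, with limma 3.58.1 on log2(RPKM + 0.1), and DESeq2 1.42.0 as another. The signs of the RPKM change matched in 590 of 592 higher and 338 of 339 lower genes, and 1 of the higher genes had an RPKM of 0 in all 10 libraries. Counts of 17011 genes were also simulated at these depths, with 1 mean per gene, the fitted spread and no skin, muscle or animal-number differences. Changes were planted only in genes with a mean log2 CPM above 1. The test recovered 43 of 50 rises of 1 on the log2 scale and 28 of 50 rises of 0.5. It recovered 42 and 22 of 50 falls of the same sizes and called 2 of 16811 unchanged genes. The real libraries differ in these respects, so these values are not its power or error rate on them.

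Named genes followed a rule. It takes the 10 largest rises and 10 largest falls (mean log2 CPM of at least 1, groups not overlapping), the 8 smallest p and 6 highest levels in each direction, and the 3 smallest p of each list with 2 or more calls. It adds 6 fixed genes, 3 genes in each direction for the difference between times, and 3 predicted genes in each direction. Skin and hair genes and predicted genes were left out of the first parts. The results of some genes that the rule names are not reported here. Further genes were named after their values were seen, among them the excitability, wider mast cell and imprinted sets. The members and lists were chosen with earlier results of these data known.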

Additional observations from a re-analysis of the deposited data

Results flagged for a closer look

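A single library stood far from the other 4 of its group in 11 of the 344 groups of 5 checked. The rule was a gap-to-range ratio above 0.71, a limit that chance passes in about 1 of 20 groups. The ratio was taken on log2 CPM, whereas the values below are plain CPM. With estrogen, Agps was high in library 4, at 120 CPM against 101 to 105. Cacna1g (12.4 against 21.6 to 24.6), Lama4 (327 against 393 to 422) and Plk2 (46.3 against 63.8 to 68.3) were low in library 5, and Slc5a5 was low in library 1 (5.90 against 13.7 to 19.0). In controls, Etv4 was low in library 2 (0.333 against 1.13 to 1.53) and Uhrf1, a maintenance methylation factor, was high in library 4 (9.98 against 6.41 to 7.19). The predicted gene F730311O21Rik was low in library 5 (5.46 against 7.20 to 7.80), and Plagl1 was low in library 3 (72.1 against 91.0 to 98.9). Krtap4-1 had 0.0476 CPM in control library 2 and 0 in the rest, and Ptpn5 had 0 in control library 3 and 0.064 to 0.0953 in the rest, both a matter of single reads. Apart from these, the effect on Gm4876 differed between 84 h and 60 h by -1.18 in a direct test.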

How the results depend on the processing

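Of 931 called genes, 0 changed sign under the count-based alternatives. In each RPKM fit the sign did not match for 3, and 1 higher gene had an RPKM of 0 in all 10 libraries. The count was 1617 by DESeq2 (984 higher, 633 lower), 303 without the 6 libraries of the later table with high skin and hair signal (281 higher, 22 lower), 518 with that signal as a covariate and 164 with only the 2 controls numbered above 80. Leaving out 1 library gave 443 to 1152 calls, with 443 without control 1, 618 without control 2, 591 without control 5, 515 without estrogen 3 and 548 without estrogen 4. Upper-quartile scaling gave 712 higher and 231 lower, limma on log2(RPKM + 0.1) 798 and 131, limma on log2(RPKM + 1) 752 and 126, and the 10 libraries alone 811 and 324, so the split between directions depends on the setting. The skeletal muscle covariate, added after seeing the data, gave 904. For the difference between times the count was 18 by DESeq2, 0 without the high-skin libraries, and 1 to 2 when 1 library was left out (2 without control 2 at 60 h). Among named genes, fold changes turned sign for Adamts16 (0.076 without high-skin libraries), Esr1 (0.024 with only controls numbered under 50) and Gm4876 (0.070 and 0.026 in the RPKM fits). The cause was not tested. No paired analysis was possible because the labels give no replicate numbers shared between the groups. Low counts limit genes near 0 in controls, such as Areg with 7 control reads.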
